A study of Galdieria sulphuraria with 9 samples.

Results

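*Galdieria sulphuraria* 074W, a wild-type red alga that grows as single cells in hot acid springs, was sampled a second time at 28 °C (C-28.2), and its transcripts were compared with those of the first sampling at the same temperature (C-28.1). The comparison used 5 of the 9 RNA libraries of the series, chosen by their sampling label: both C-28.2 libraries (cultures A and C) and the 3 of C-28.1 (cultures A, B and C). Both samplings followed 48 h at 28 °C. C-28.2 cultures came from 48 h at 46 °C, whereas C-28.1 cultures came from 2 weeks at 42 °C. All cultures were photoautotrophic batch cultures under constant light, and the same cultures were carried through the timeline, so C-28.2 cultures were also older and had already been through 28 °C once. The preceding temperature, the age of the culture and the earlier cold period therefore cannot be told apart. Culture B has no C-28.2 library here, and C-28.1 A and C-28.1 B carry the same index number, 12, in their labels. Cultures of a sampling were grown separately, and the lane of each library is not given in the sources used here. The other 4 libraries entered the fit to estimate the spread between cultures, namely those taken after 48 h at 46 °C (H-46, cultures A and C) and at 42 °C before the first shift (H-42, cultures B and C).

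*G. sulphuraria* can live by photosynthesis alone, and 28 °C is well below the temperatures at which it was grown. In algae and plants, a fall in temperature slows translation, folding and membrane transport, and cells commonly adjust ribosome biogenesis, chaperones, lipids and compatible solutes such as trehalose. Plastid genes are read by a bacterial-type RNA polymerase that is directed to its promoters by sigma factors encoded in the nucleus. The comparison addresses how far the transcript levels of the first cold sampling returned at the second.

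Reads were counted on 6538 genes, 4539163 to 8779063 per cold library, and 6264 genes passed the filter on low counts. Levels are in CPM, each gene's reads as a rate relative to all reads of the library, with TMM scaling, which corrects for differences in library composition. A gene was called at a Benjamini-Hochberg adjusted p below 0.05 in edgeR's quasi-likelihood test with a fold change above 2.5, which is 1.32 on the log2 scale. The study's tables pair 1164 genes with a product, 771 of them more specific than a hypothetical protein. These are genes with alternatively spliced introns or with a temperature response, so they are not a random sample, and the temperature list was chosen on these same libraries. Cultures A and C differed within C-28.2, and C-28.2 C was the further from C-28.1. The root mean square log2 difference between the C-28.2 libraries was 0.610 over the tested genes, against 0.272 to 0.421 between C-28.1 libraries and 0.540 to 0.843 for pairs from the 2 samplings. On the second principal component, which held 20.2% of the variance over all 9 libraries, C-28.2 C lay at -43.2 and C-28.2 A at -12.4. The same cultures already differed at H-46, by 0.675, and H-46 A lay at 28.9 and H-46 C at -10.5 on this component. On the third component C-28.2 A lay at 19.3, C-28.2 C at 5.04 and the C-28.1 libraries between -13.5 and -1.02. Results are therefore given with and without C-28.2 C.

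At the second cold sampling relative to the first, 162 of the 6264 tested genes (2.59%) were called, 112 of them higher (1.79%) and 50 lower (0.798%) in C-28.2. Without the fold minimum, 486 genes were higher (7.76%) and 499 lower (7.97%) at an adjusted p below 0.05. Most differences were small. The median absolute log2 fold change over all tested genes was 0.43, and the median over the called genes was 1.57 for those higher and -1.47 for those lower. A single gene, Gs07500, passed at an adjusted p below 0.01. With the culture as a block, 205 genes were called, 121 higher and 84 lower, of which 149 were among the 162. With scaling to library totals alone, 137 were higher and 31 lower, so that 81.5% of calls were rises, against 69.1% with TMM. No gene passed edgeR's glmTreat, which tests for a change beyond 2.5-fold, and 48 had an unadjusted p below 0.05.

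Each change was then checked in both C-28.2 cultures, by the log2 ratio of C-28.2 over C-28.1 within culture A and within culture C (CPM plus 0.5). Ratios and calls use the same libraries, so the agreement in sign and the separation of groups are largely set by the call. All 162 called genes had the same sign in both cultures, as had 72.7% of all tested genes. In 160 of them both C-28.2 libraries lay on one side of all 3 C-28.1 libraries, which was also true of 54.3% of all tested genes. The change exceeded 2.5-fold in both cultures in 60 called genes, 31 higher and 29 lower. It stayed under 2.5-fold in culture A in 85 called genes and in culture C in 18. For the genes called higher, the median log2 ratio was 1.17 in culture A and 1.83 in culture C. For those called lower, the medians were closer, at -1.54 in culture A and -1.65 in culture C. The 2 called genes whose groups overlapped were Gs13190, with 1345 CPM in C-28.2 A and 187 CPM in C-28.2 C against 195, 156 and 119 CPM in the C-28.1 libraries, in the order A, B, C, and Gs24830, with 117 and 29.7 CPM against 29.7, 20.8 and 18.3 CPM. Both were much higher in C-28.2 A than in C-28.2 C.

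**Figure D1:**
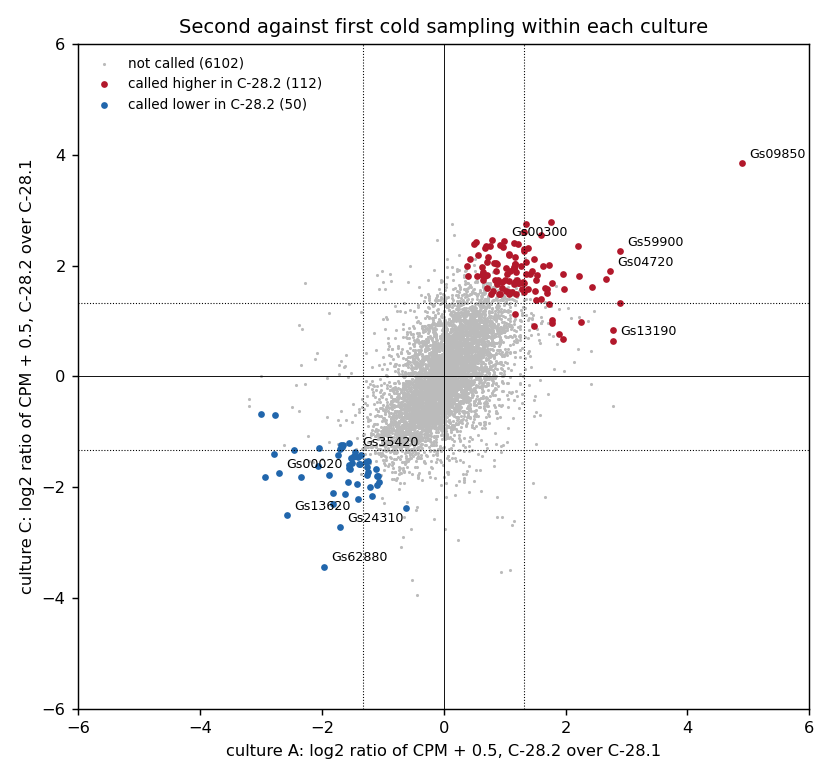
Log2 ratio of C-28.2 over C-28.1 (CPM plus 0.5) within culture A on the x axis and within culture C on the y axis, 1 point per tested gene, with called genes in red (higher in C-28.2) and blue (lower) and dotted lines at 2.5-fold. All 162 called genes lie in the upper right or lower left quadrant, and 85 of them lie within 2.5-fold in culture A, against 18 in culture C.

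The number of calls depended on single libraries. Leaving out C-28.2 C lowered it to 31 (16 higher and 15 lower), 20 of them among the 162, whereas leaving out C-28.2 A raised it to 470 (278 higher and 192 lower), 132 of them among the 162. In these 2 fits C-28.2 has a single library, which is assumed to vary like the other groups. Without C-28.1 C no gene was called in edgeR, although 1618 had an unadjusted p below 0.05, and without C-28.1 A or C-28.1 B 85 and 80 were called. Among the 31 genes chosen below that were called, 8 were still called without C-28.2 C, 26 without C-28.2 A, 17 without C-28.1 A, 21 of 30 tested without C-28.1 B and 28 without either H-42 library. All 31 were called without either H-46 library.

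**Figure D2:**
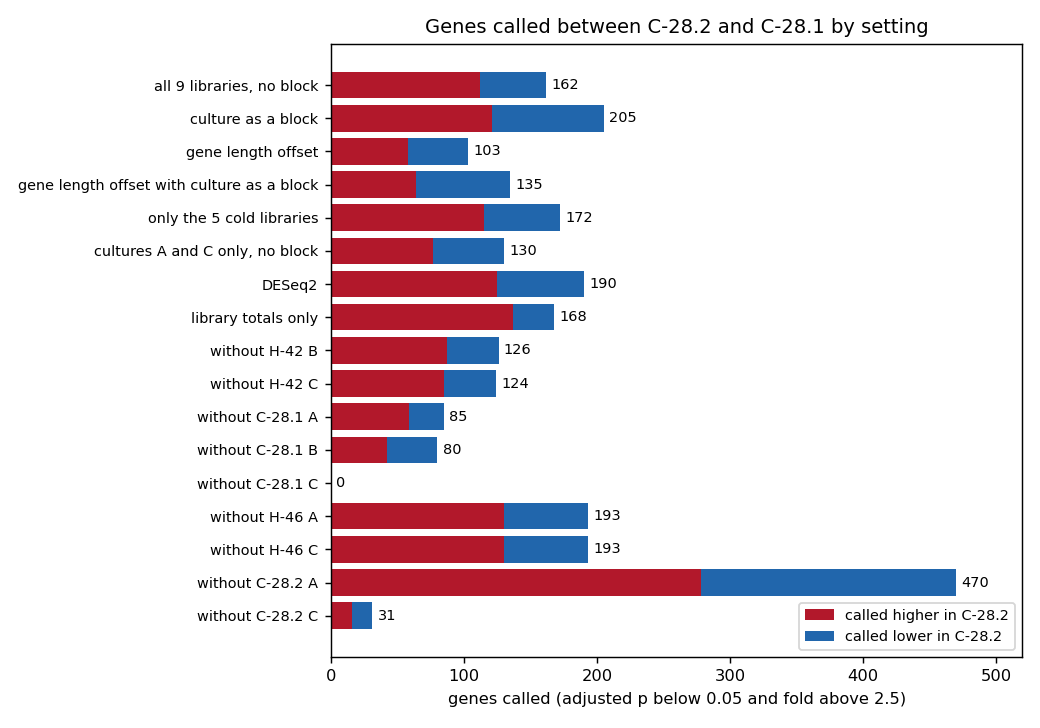
Number of genes called between the cold samplings, higher in C-28.2 in red and lower in blue, for the fit on all 9 libraries, for alternative fits and with each library left out. The fit on all libraries calls 162, and the counts run between 0 without C-28.1 C and 470 without C-28.2 A.

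Gene length moved with the result. The genes called higher in C-28.2 had a median length of 891 bp and those called lower 1858 bp, against 1405 bp over all tested genes with a length in RefSeq. Among the shortest of 4 groups of genes by length (262 to 981 bp) the median difference from the C-28.1 mean was 0.60 on the log2 scale in C-28.2 C and 0.18 in C-28.2 A. Among the longest (1984 bp and over) it was -0.44 in C-28.2 C and -0.15 in C-28.2 A. The 3 C-28.1 libraries stayed within 0.03 of their mean in both groups. The shortest group held 67 of the genes called higher and 10 of those called lower, and the longest group 5 and 19. When each library's trend over gene length was removed by an offset, an alternative chosen after seeing the data, 103 genes were called, 58 higher and 45 lower, so that 56.3% of calls were rises. Of the original 162, 74 were still called with this offset (47 higher and 27 lower) and 151 kept an adjusted p below 0.05.

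**Figure D3:**
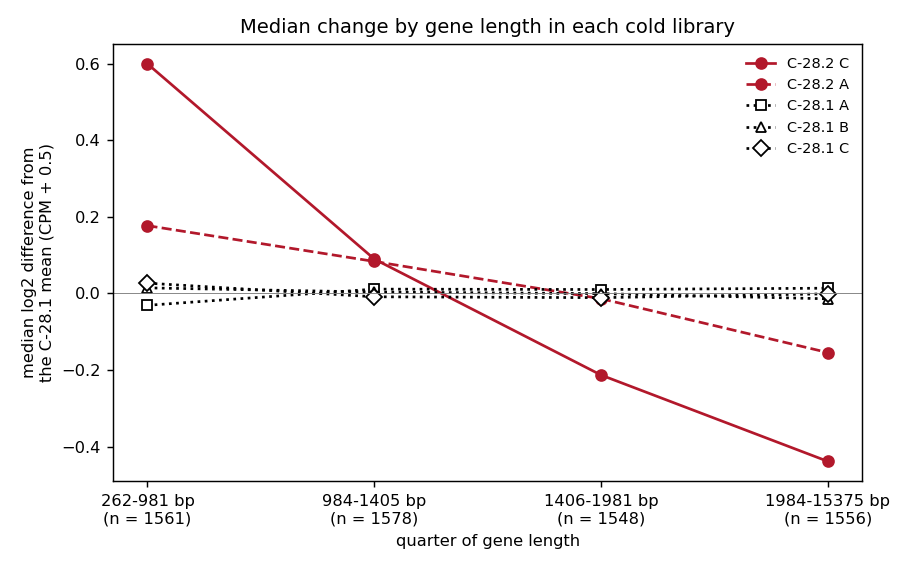
Median log2 difference of each cold library from the mean of the C-28.1 libraries (CPM plus 0.5) in 4 groups of genes by length, with C-28.2 in red and C-28.1 in black. C-28.2 C runs between 0.60 in the shortest and -0.44 in the longest group, C-28.2 A between 0.18 and -0.15, and the C-28.1 libraries lie near 0.

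The 8 largest rises and the 8 largest falls are described among called genes with at least 10 counts on average over the cold libraries and with both C-28.2 libraries on one side of all 3 C-28.1 libraries. Gs09850, whose product is not named in the sources used here, rose most. It had 4890.4 and 1481 CPM in C-28.2 (A and C), against 164, 356 and 102 CPM in C-28.1, or 3.94 on the log2 scale (SE 0.66, adjusted p = 0.011, edgeR). The ratio was large in both cultures, 4.89 and 3.85 on the log2 scale in A and C. The adjacent Gs09840 moved the other way, with 618 and 605 CPM in C-28.2 against 1492, 1541 and 1758 CPM in C-28.1 (log2 fold change -1.38, SE 0.24, adjusted p = 0.012, edgeR). The strand setting of the counts is not given in the sources used here, so reads from overlapping transcripts of neighbours, or from near-identical copies of a gene, could not be told apart.

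Gs59900 had 44.2 and 26.3 CPM in C-28.2 against 5.48, 8.65 and 5.1 CPM in C-28.1 (log2 fold change 2.43, SE 0.30). The adjacent Gs59910 was called in the same direction, with 53.7 and 85.9 CPM in C-28.2 against 18.3, 29.6 and 23.8 CPM in C-28.1. Among the called genes were 4 adjacent pairs, of which 3 moved in one direction. How many such pairs calls spread at random over the genome would give was not computed, so no clustering is read from them. Adjacent genes are named here for their position and after their values were seen. Gs07500, annotated as a hypothetical protein, had 93.4 and 119 CPM in C-28.2 against 29.7, 29.6 and 29.5 CPM in C-28.1 (log2 fold change 1.84, SE 0.18, adjusted p = 0.0023, edgeR). Its C-28.1 libraries were nearly equal, and C-28.2 exceeded them more than 2.5-fold in both cultures. It stayed called without C-28.2 C, without C-28.2 A, with the culture as a block and with the length offset, but not without C-28.1 C.

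The other large rises were in genes with few reads and without a named product. Gs04720 had 8.83 and 1.97 CPM in C-28.2 against 0.914, 0.721 and 0.16 CPM in C-28.1, from 1 to 49 counts per library, so its log2 fold change of 3.18 (SE 0.73) carries a large counting error. Gs63030 (2.52 and 6.1 against 0.685, 0.481 and 0.479 CPM, from 3 to 31 counts) had a log2 fold change of 2.96. Gs28770 was the best counted of them, with 10.5 and 19.1 CPM in C-28.2 against 3.88, 3.24 and 2.71 CPM in C-28.1 (2.18, SE 0.34). Gs21210 had 8.11 and 10.6 CPM against 2.06, 2.4 and 1.12 CPM (2.31, SE 0.37), and Gs47130 had 8.47 and 3.34 CPM against 0.914, 1.92 and 0.638 CPM (2.26, SE 0.60). Gs28680 had 3.6 and 6.49 CPM against 1.14, 1.32 and 0.957 CPM (2.11, SE 0.46). Culture C was the higher of the C-28.2 cultures in Gs63030, Gs21210, Gs28770 and Gs28680, and culture A in Gs04720 and Gs47130. Without C-28.2 C, Gs04720 was the only one of the 6 still called, and without C-28.2 A it and Gs47130 were not called.

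The largest fall among well counted genes was that of Gs13620, whose product is not named. It had 270.0 and 401 CPM in C-28.2 against 1603, 1709 and 2273 CPM in C-28.1 (log2 fold change -2.47, SE 0.33, adjusted p = 0.010, edgeR). The fall was nearly equal in both cultures, -2.57 in A and -2.50 in C on the log2 scale. Gs62010 had 556 and 392 CPM in C-28.2 against 1974, 1418 and 1945 CPM in C-28.1 (log2 fold change -1.91, SE 0.29). Gs47610 had 46.9 and 43.5 CPM against 167, 129 and 188 CPM (-1.83, SE 0.24), and Gs24310 had 78.2 and 36.2 CPM against 256, 205 and 242 CPM (-2.03, SE 0.40). All 4 genes fell more than 2.5-fold in both cultures, although Gs62010 and Gs24310 were not called without C-28.2 C (adjusted p = 0.069 and 0.093, edgeR).

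Gs00020 had 10.3 and 26.1 CPM in C-28.2 against 69.4, 58.6 and 89.2 CPM in C-28.1 (log2 fold change -2.00, SE 0.37). Gs62880 had 1.44 and 0.197 CPM in C-28.2 against 7.08, 4.09 and 7.02 CPM in C-28.1 (-2.80, SE 0.62). Gs61680, with 0.901 and 0.59 CPM against 10.3, 1.92 and 3.35 CPM (-2.68, SE 0.83), and Gs06700, with 3.78 and 3.93 CPM against 21.2, 8.05 and 15.2 CPM (-1.92, SE 0.48), completed the 8 largest falls. The low genes among them, Gs62880 and Gs61680, rest on 1 to 45 counts per library.

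**Figure D4:**
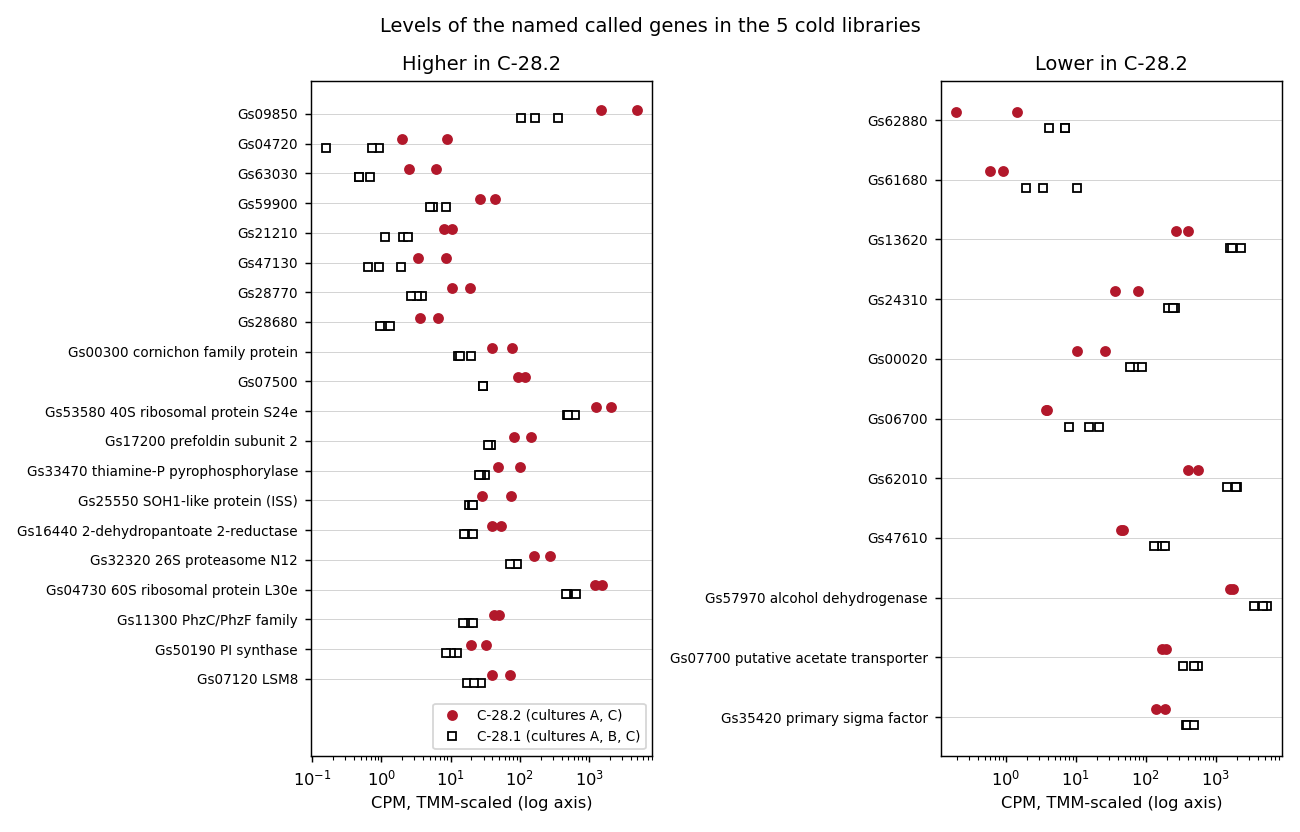
CPM (TMM-scaled, log axis) of the named called genes in each cold library, with red circles for C-28.2 and open squares for C-28.1, rises in the left panel and falls in the right. The rule that chose most of these genes required both C-28.2 libraries to lie on one side of all 3 C-28.1 libraries. Gs07500 was chosen by its adjusted p and Gs07120 as a called list member, and their libraries lie so too.

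Of the 766 tested genes with a named product, 14 were called, 11 of them higher in C-28.2 and 3 lower. Over all 6264 tested genes 162 (2.59%) were called, so genes with a named product were not called more often than others. The rises included genes of translation and of protein folding and turnover. Gs53580, the 40S ribosomal protein S24e, had 1238 and 2104 CPM in C-28.2 against 485, 634 and 503 CPM in C-28.1 (log2 fold change 1.63, SE 0.36, adjusted p = 0.021, edgeR). Gs04730, the 60S ribosomal protein L30e, had 1198 and 1524 CPM against 486, 639 and 469 CPM (1.36, SE 0.27), and it is the neighbour of Gs04720. Gs17200, prefoldin subunit 2, part of a cochaperone that hands unfolded actin and tubulin to the cytosolic chaperonin, had 82.4 and 143 CPM in C-28.2 against 36.5, 38.6 and 34.6 CPM in C-28.1 (1.62, SE 0.29). Gs32320, the regulatory subunit N12 of the 26S proteasome, had 158 and 276 CPM against 87.2, 90.3 and 73.1 CPM (1.38, SE 0.32). In each of these genes the rise was larger in culture C than in culture A.

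Gs00300, a cornichon family protein, of a family that in yeast and animals loads cargo proteins into vesicles leaving the endoplasmic reticulum, had the largest fold change among the genes with a product. It had 39.1 and 77.3 CPM in C-28.2 against 19.4, 12.6 and 13.9 CPM in C-28.1 (log2 fold change 1.94, SE 0.30, adjusted p = 0.010, edgeR). Enzymes of cofactor and lipid synthesis were also called. Gs33470, thiamine-phosphate pyrophosphorylase of thiamine synthesis, had 48.1 and 101 CPM in C-28.2 against 31.1, 27.4 and 25.4 CPM in C-28.1 (1.42, SE 0.34). Gs16440, 2-dehydropantoate 2-reductase of pantothenate synthesis, had 40.2 and 52.9 CPM against 17.1, 20.8 and 15.5 CPM (1.38, SE 0.25). Gs50190, the CDP-diacylglycerol--inositol 3-phosphatidyltransferase that makes phosphatidylinositol, had 20.0 and 32.4 CPM against 12.6, 10.2 and 8.45 CPM (1.34, SE 0.27). In culture A the change was under 2.5-fold in all 4 genes, at 0.99 in Gs00300, 0.62 in Gs33470, 1.21 in Gs16440 and 0.65 in Gs50190 on the log2 scale.

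The remaining rises with a product were LSM8, a SOH1-like protein and a PhzC/PhzF family protein. Gs07120 is annotated as LSM8, of the nuclear Sm-like ring that binds U6 snRNA. It had 39.7 and 72.4 CPM in C-28.2 against 17.1, 27.5 and 21.7 CPM in C-28.1 (log2 fold change 1.33, SE 0.27). Gs25550, similar to SOH1, a Mediator subunit in yeast, had 28.7 and 75.5 CPM against 18.3, 20.4 and 20.9 CPM (1.38, SE 0.37). Gs11300, of the PhzC/PhzF family, had 42.4 and 50.7 CPM against 18.5, 20.8 and 15.3 CPM (1.35, SE 0.21). Of these 11 rises, S24e alone passed 2.5-fold in culture A as well as in culture C (1.35 on the log2 scale in A). With the culture as a block, Gs25550 (log2 fold change 1.30) and Gs50190 (1.32) fell short of the fold minimum. With the length offset, only Gs00300 (1.54) and Gs16440 (1.52) of these 11 genes were still called, the others keeping an adjusted p below 0.05 at under 2.5-fold. Without C-28.2 C none of the 11 was called, their adjusted p running between 0.060 and 0.40 (edgeR) and their log2 fold changes between 0.52 and 1.37.

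The 3 falls with a product were more even between the cultures. Gs57970, an alcohol dehydrogenase, had 1606 and 1751 CPM in C-28.2 against 5332, 3467 and 4657 CPM in C-28.1 (log2 fold change -1.42, SE 0.26, adjusted p = 0.013, edgeR). Gs07700, a putative acetate transporter, had 195 and 167 CPM against 553, 340.1 and 491 CPM (-1.35, SE 0.30), and its neighbour Gs07710, a hypothetical protein, had 76.4 and 66.7 CPM against 226, 139.8 and 203 CPM (-1.40, SE 0.26). Gs35420, an RNA polymerase primary sigma factor, had 137 and 188 CPM in C-28.2 against 376, 386 and 482 CPM in C-28.1 (-1.35, SE 0.24, adjusted p = 0.013, edgeR). Its ratio was -1.45 in culture A and -1.36 in culture C on the log2 scale, and it was called without C-28.2 C (log2 fold change -1.59, adjusted p = 0.048, edgeR), although its fold change was just under the minimum with scaling to library totals (-1.30). Without C-28.2 A (-1.13) and with the length offset (-1.17) it was also under the fold minimum. Gs57970 and Gs07700 were not called without C-28.2 C (adjusted p = 0.075 and 0.12, edgeR).

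Gs34230, Gs28130 and Gs45620, which were to be described whatever their result, and the gene with the highest mean level were not called. Gs34230, an ATP-dependent RNA helicase, had 90.5 and 79.6 CPM in C-28.2 against 144, 163 and 192 CPM in C-28.1, which is -0.97 on the log2 scale (SE 0.24, adjusted p = 0.025, edgeR) under the fold minimum. Gs28130, the splicing factor arginine/serine-rich 2, had 335 and 509.8 CPM in C-28.2 against 383, 557 and 524 CPM in C-28.1 (-0.21, SE 0.27, adjusted p = 0.60, edgeR), and the groups overlapped. Gs45620, without a named product, had 27.8 and 51.5 CPM against 23.3, 29.2 and 28.6 CPM (0.55, SE 0.26, adjusted p = 0.16, edgeR). Gs43630, which had the highest mean level in both cold samplings, had 25839.8 and 40386 CPM in C-28.2 against 22112, 29538 and 31508 CPM in C-28.1 (0.26, SE 0.31).

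The products were grouped into 23 lists by name, which hold 319 tested genes. Of these, 8 (2.51%) were called, 6 higher and 2 lower in C-28.2, against 2.59% of all tested genes. Without the fold minimum, 35 were higher and 21 lower at an adjusted p below 0.05, where all tested genes gave 7.76% higher and 7.97% lower. The lists hold only genes with a product name, which lean to rises as a whole. Of the 766 such genes tested, 85 were higher and 52 lower, with a median log2 fold change of 0.11. With the culture as a block 89 list members had an adjusted p below 0.05, against 56 without the block, and without C-28.2 C only 1 did (Gs35420). Members under the fold minimum are named below because they passed the adjusted p, a choice made with their values in view.

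Cytosolic ribosomal proteins, together with redox defence, had the highest list median among the lists of more than 1 gene, 0.57 on the log2 scale. Of the 15 cytosolic ribosomal genes tested, 4 rose at an adjusted p below 0.05 and none fell, 2 of them being called. The median was 0.01 over all tested genes and 0.11 over those with a product name. The list's median ratio was 0.55 in culture A and 0.71 in culture C. Beside S24e and L30e, Gs36380 (L17e) had 1388 and 1672 CPM in C-28.2 against 618, 729 and 491 CPM in C-28.1, a log2 fold change of 1.32 that lay just under the fold minimum, and Gs57310 (S12e) had 1661 and 2358 CPM against 1138, 1209.5 and 1062 CPM (0.82). Not all members were high, as Gs57270 (L15e) and Gs52020 (S16e) had log2 fold changes of -0.44 and -0.28 with an adjusted p of 0.19 and 0.35 (edgeR). With the culture as a block, 9 of the 15 rose at an adjusted p below 0.05 and 4 were called. These are short genes, of 651 bp in the median, and with the length offset the median fell to 0.20, with 3 genes past the adjusted p and none called. Without C-28.2 C the median was 0.47 and no member passed the adjusted p. Organellar ribosomal proteins had a median of 0.42, with 1 of 8 higher at an adjusted p below 0.05. This median was 0.14 with the length offset and 0.21 without C-28.2 C. Aminoacyl-tRNA synthetases had a median of -0.22, which was -0.01 with the offset, and none of 9 passed. Of 12 translation factors, Gs25100 rose (log2 fold change 1.28) and Gs47930, which binds poly(A), fell (-1.07), both under the fold minimum.

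Among the lists of folding and protein turnover, members moved both ways. Of 8 chaperones, prefoldin subunit 2 rose, and Gs53260, a DnaJ homolog, fell to 99.8 and 81.0 CPM in C-28.2, against 177, 189.7 and 208 CPM in C-28.1 (log2 fold change -1.08, adjusted p = 0.015, edgeR). The chaperonin GroES (Gs07100) did not pass (0.04, adjusted p = 0.90, edgeR). Of 22 genes of the proteasome and ubiquitin, 2 rose and 1 fell at an adjusted p below 0.05. They were the proteasome subunit N12 and the deubiquitinating hydrolase Gs42780 (0.98), which rose, and the hydrolase Gs11350 (-0.95), which fell. Of 11 prolyl isomerases 2 rose and 1 fell.

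Spliceosomal genes were also mixed. Of 10 tested, LSM8 rose, while Gs35570, the branch site protein p14, and Gs33180, the arginine/serine-rich factor 7, fell by less than the fold minimum. Gs35570 had 104 and 97.3 CPM in C-28.2 against 209, 186 and 203 CPM in C-28.1 (log2 fold change -0.98, SE 0.18), and Gs33180 had 530.1 and 528 CPM against 829, 1052 and 1085 CPM (-0.90, SE 0.21). Gs35570 had even levels within each sampling, whereas Gs33180 ran from 829 to 1085 CPM in C-28.1. The list's median was -0.08. With the length offset, with or without the block, no splicing gene was called higher and 1 was called lower, 3 being lower at an adjusted p below 0.05. Of 17 RNA helicases and RNA-binding proteins, 1 rose and 2 fell.

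Of the 27 transcription factors 2 rose and 4 fell, both sigma factors of this list being among the falls. Sigma factors without a product name in the study's tables would not be in it. The sigma factor Gs17390 fell beside Gs35420, with 99.1 and 105 CPM in C-28.2 against 171, 204 and 207 CPM in C-28.1 (log2 fold change -0.93, SE 0.22). Of 7 genes of tetrapyrrole and carotenoid synthesis 1 rose and 2 fell at an adjusted p below 0.05. Gs50980, protochlorophyllide reductase, had 121 and 167 CPM against 245, 266 and 358 CPM (-1.01, SE 0.24), and Gs14220, subunit D of the magnesium chelatase that opens the chlorophyll branch, had 184 and 153 CPM against 319, 314 and 329 CPM (-0.93, SE 0.21). The earlier enzyme uroporphyrinogen-III synthase (Gs13390) was higher, with 179 and 232 CPM against 124, 106 and 117 CPM (0.83, SE 0.21). This list's median was -0.47, with the length offset -0.41 and without C-28.2 C -0.23. Of 3 genes of nitrogen assimilation 1 fell. It was glutamine synthetase (Gs37790), which fixes ammonium into glutamine and had 3190.5 and 2652 CPM in C-28.2 against 6880.4, 6010.5 and 6392 CPM in C-28.1 (-1.14, SE 0.26), with ratios of -1.11 in culture A and -1.27 in culture C. The single tested gene of the photosynthetic apparatus list, the thylakoid lumen protein Gs19100, was higher, with 144 and 242 CPM against 98.9, 76.7 and 72.9 CPM (1.22, SE 0.24).

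Of 20 genes of DNA replication, chromatin and the cell cycle none rose and 2 fell at an adjusted p below 0.05, both subunits of the MCM helicase that unwinds DNA at replication forks. Gs58830 had 85.4 and 77.3 CPM in C-28.2 against 151, 145 and 184 CPM in C-28.1 (log2 fold change -0.98, SE 0.22), and Gs02880 had 159.5 and 157 CPM against 262, 250.0 and 295 CPM (-0.77, SE 0.19). The third MCM gene of this list, Gs05680, did not pass (-0.51, adjusted p = 0.13, edgeR). Both C-28.2 libraries were below all 3 C-28.1 libraries in 11 of the 20 genes and above them in 1, whereas over all tested genes 1707 of 6264 were below and 1696 above. The list's median was -0.27 and its median gene length 1858 bp, and with the length offset the median was -0.11.

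Lists with members higher in C-28.2 included redox defence and the storage glucans. Of 10 redox genes 3 rose and none fell: glutathione peroxidase Gs56810 (log2 fold change 0.999), the putative glutathione S-transferase Gs41140 (0.81) and the thioredoxin-like Gs30850 (0.79). The ratio of glutathione peroxidase was 0.36 in culture A and 1.49 in culture C. The redox list's median of 0.57 was 0.28 with the length offset, with 2 genes past the adjusted p, and 0.36 without C-28.2 C, with none past it. Of 7 genes of storage glucans and osmolytes 2 rose, the alpha-amylase Gs14640 (0.74) and the trehalose-phosphate synthase Gs22110 (0.61). Gs22110 had 46.3 and 41.7 CPM in C-28.2 against 29.9, 27.5 and 29.4 CPM in C-28.1. The second trehalose-6-phosphate synthase of the list, Gs01880, did not pass (-0.26, adjusted p = 0.29, edgeR). This list's median was 0.47, and 0.67 with the length offset, its genes being long (2231 bp in the median), and 0.35 without C-28.2 C. Of 25 genes of lipid and sterol metabolism 4 rose and none fell, with a median of 0.16 (0.04 with the length offset and 0.07 without C-28.2 C).

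In the remaining lists few members passed or the directions were mixed. Of 54 transporters 6 rose and 3 fell at an adjusted p below 0.05, with a median of -0.02. The falls were the acetate transporter, the P-type ATPase Gs07720 (log2 fold change -1.24) and the ABC transporter Gs06480 (-0.86), and the rises were led by the mitochondrial carrier Gs41110 (1.05) and the zinc transporter Gs17940 (1.01). Genes of rRNA and tRNA processing (2 of 15 higher, none lower, median 0.38, but 0.20 with the length offset and 0.10 without C-28.2 C), DNA repair (1 higher and 1 lower of 13), respiration and the citrate cycle (1 lower of 11), the Calvin cycle and glycolysis (none of 6) and protein kinases and phosphatases (1 higher of 13) completed the lists.

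**Figure D5:**
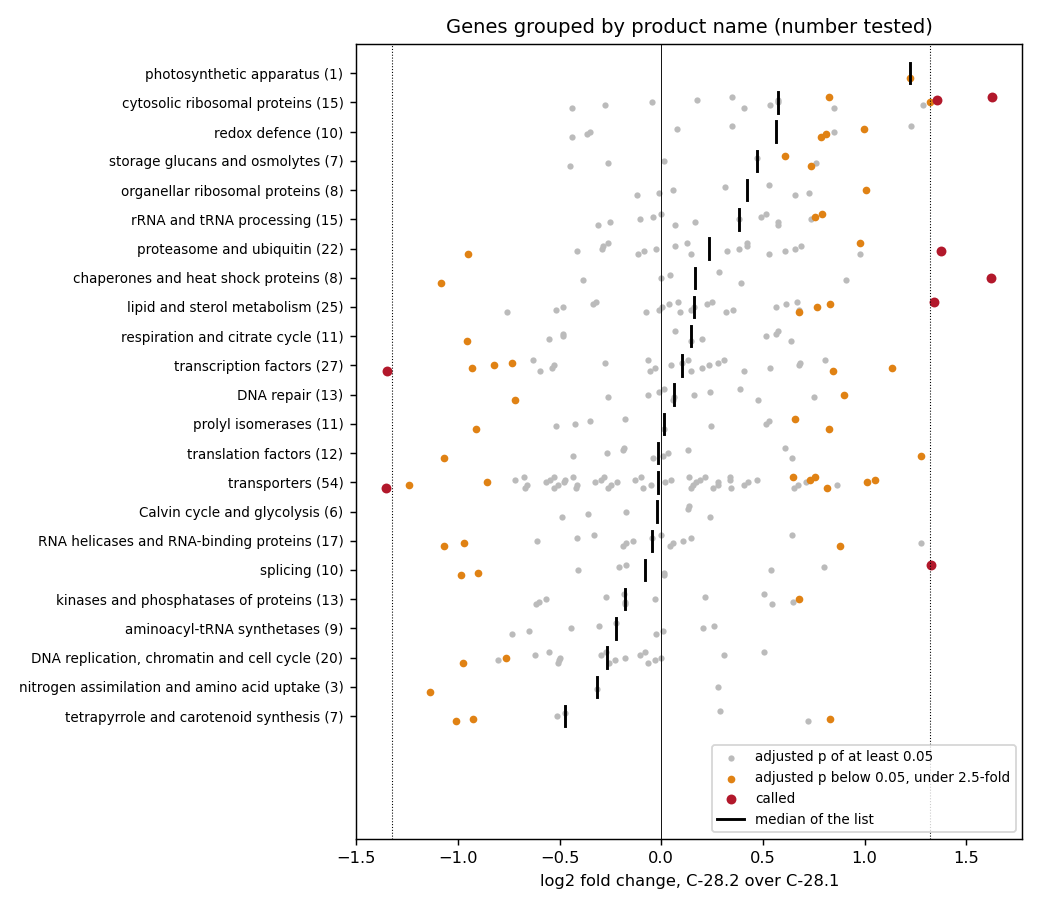
Log2 fold change of C-28.2 over C-28.1 for each member of the 23 lists (number of tested genes in brackets), with called genes in red, genes at an adjusted p below 0.05 but under 2.5-fold in orange, the list median as a black bar and dotted lines at 2.5-fold. Medians run between -0.47 (tetrapyrrole and carotenoid synthesis, 7 genes) and 0.57 (cytosolic ribosomal proteins, 15 genes) in lists of more than 1 gene.

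Of the 162 called genes, 15 (11 higher and 4 lower) were also called with the culture as a block, with the length offset and without C-28.2 C, a combination chosen after the values were seen. Without C-28.2 A, 10 of the 15 were called (6 higher and 4 lower), Gs04720, Gs06260, Gs13190, Gs24830 and Gs42600 losing the call, and without C-28.1 C none was. None of the 15 has a named product. Beside Gs09850, Gs04720, Gs59900, Gs07500, Gs13190 and Gs24830, the rises were Gs06260 (227 and 152 CPM in C-28.2 against 74.2, 88.7 and 57.6 CPM in C-28.1), Gs06850 (80.9 and 44.8 against 10.5, 16.8 and 17.5 CPM), Gs42600 (233 and 55.8 against 33.3, 36.5 and 31.1 CPM), Gs44470 (62.4 and 51.5 against 11.2, 19.0 and 16.4 CPM) and Gs53030 (71.2 and 75.7 against 21.2, 25.6 and 18.5 CPM). Gs44470 and Gs53030 had like levels in both C-28.2 cultures, and Gs42600 was high mainly in culture A. The falls were Gs13620, Gs00020, Gs47610 and Gs36210, the last with 20.2 and 36.0 CPM in C-28.2 against 75.8, 97.7 and 124 CPM in C-28.1.

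The levels before each cold period are set side by side here, since each shift shares libraries with the comparison of the cold samplings. Over the 112 genes called higher, the median level was 31.6 and 52.7 CPM in C-28.2, 16.1, 17.2 and 15.4 CPM in C-28.1, 20.9 and 33.3 CPM in H-46 and 22.5 and 23.2 CPM in H-42. Over the 50 called lower, it was 54.2 and 38.9 CPM in C-28.2, 146, 111 and 135 CPM in C-28.1, 163 and 102 CPM in H-46 and 119 and 122 CPM in H-42. For the genes called higher, the heat medians were above all 3 C-28.1 medians and below that of C-28.2 C. For those called lower, they were above both C-28.2 medians. The genes were chosen by their difference between the cold samplings, so the position of the heat medians is partly set by that choice. Single genes followed several courses. Gs13620 had 3082 and 4691 CPM in H-46 and 4304 and 6442 CPM in H-42, so both cold samplings were below heat and C-28.2 was the lower of them. The alcohol dehydrogenase Gs57970, with 8288 and 7709 CPM in H-46 and 7543 and 8331 CPM in H-42, had the same order. The sigma factor Gs35420 differed, with 159 and 112 CPM in H-46 and 155 and 153 CPM in H-42, overlapping its level in C-28.2, while C-28.1 was higher. S24e had 165 and 444 CPM in H-46 and 527 and 572 CPM in H-42, so its shift was 2.46 on the log2 scale into C-28.2 and -0.02 into C-28.1.

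The difference between the 2 cold shifts, (C-28.2 minus H-46) minus (C-28.1 minus H-42), was tested in the same fit. It passed in 1 of 6264 genes (0.016%), Gs49910, and 1551 genes had an unadjusted p below 0.05. Gs49910, without a named product, had 27.0 and 23.6 CPM in C-28.2 and 242 and 185 CPM in H-46, against 53.7, 49.3 and 44.7 CPM in C-28.1 and 81.9 and 86.7 CPM in H-42. Its log2 change was -3.08 at the second shift and -0.78 at the first, and the difference was -2.30 (SE 0.28, adjusted p = 0.032, edgeR). With the culture as a block 161 genes passed this test, with DESeq2 286, and without H-46 C 1019. No gene passed it in edgeR when either H-42 library or any of the 3 C-28.1 libraries was left out (900 to 1296 at an unadjusted p below 0.05), so the call of Gs49910 was lost in these 5 fits.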

How the data were processed

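Transcripts of *G. sulphuraria* 074W were sequenced as paired-end Illumina TruSeq RNA v2 libraries. For each library the authors deposited 1 file of gene-level read counts, which were not normalized. Their Methods describe trimming, STAR mapping and removal of reads with more than one position for the splicing analysis, whereas the annotation and strand setting of the counts are not given in the sources used here. Totals ran between 4389066 and 8989387 counts, and reads without molecular identifiers are not independent molecules.

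Counts were analysed in edgeR 4.0.16 (R 4.3.3). Genes were filtered with filterByExpr by sampling, scaled with TMM and fitted with the quasi-likelihood model over all 9 libraries with 4 samplings as groups. P-values were two-sided and adjusted with Benjamini-Hochberg over all tested genes. Calls needed an adjusted p below 0.05 and more than a 2.5-fold change, the minimum of the study's Methods, which give no false discovery rate for genes. CPM values are TMM-scaled, with 0.5 CPM added in ratios within a culture. Each SE was derived from the size of the log2 change and the square root of F. An exact permutation test over 2 and 3 libraries has only 10 splits and was not used. Fits were tested on simulated data with 200 genes changed 6-fold, raised and lowered in equal numbers. Without a trend over gene length, the fit gave 1 false call and 5 false genes at an adjusted p below 0.05. With a trend over gene length and no offset, it gave 60 false calls and 620 false genes at that adjusted p. With the trend and the gene length offset, these numbers were 0 and 8. The simulated trend was equal in both C-28.2 libraries, whereas in the data it was steeper in C-28.2 C than in C-28.2 A. The simulated counts of false calls are therefore not estimates for these data.

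Culture letters mark the same cultures through the timeline, so they pair libraries. Deviations from the group means correlated between the cold samplings at 0.12 in culture A and 0.15 in culture C. Between H-46 and C-28.2 they correlated at 0.56 within a culture. With 2 libraries in a group the deviations mirror each other, so this is 1 value for both cultures. For the same reason H-42 B with H-46 A, of different cultures, gave 0.33, as did H-42 C with H-46 C. The main fit treats all libraries as independent, and the culture was used as a block in an alternative fit. Named genes were the 8 largest rises and falls and up to 10 with a product per direction (called, at least 10 counts on average, groups not overlapping), Gs35420, Gs45620, Gs28130 and Gs34230 by their numbers, the gene with the highest mean in each cold sampling and called members of each list. Genes called at an adjusted p below 0.01 were also named. Neighbours, list members under the fold minimum and genes called in several fits were named after their values were seen. The members and lists were chosen with earlier results of these data known. Products came from the study's tables, and gene lengths and locus tags from RefSeq ASM34128v1, which matched 6510 of 6538 genes.

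Alternatives were RLE scaling, library totals, DESeq2 1.42.0, other filters and thresholds, fits on fewer samplings or cultures, and leaving out each library. Where this leaves C-28.2 with 1 library, that library is assumed to vary like the other groups. A gene length offset (with and without the block) and the block in cultures A and C alone were chosen after seeing the data.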

Additional observations from a re-analysis of the deposited data

Results flagged for a closer look

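Gs49910, a gene without a named product, differed between the 2 cold shifts in a test of the difference itself. (C-28.2 minus H-46) minus (C-28.1 minus H-42) was -2.30 on the log2 scale (SE 0.28, adjusted p = 0.032, edgeR), with a shift of -3.08 into C-28.2 and of -0.78 into C-28.1. The gene had 27.0 and 23.6 CPM in C-28.2 and 242 and 185 CPM in H-46, against 53.7, 49.3 and 44.7 CPM in C-28.1 and 81.9 and 86.7 CPM in H-42. The 4 groups did not overlap, with H-46 highest and C-28.2 lowest. No gene passed this test when either H-42 library or any of the 3 C-28.1 libraries was left out, so the call was lost in 5 of 9 such fits.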

How the results depend on the processing

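The number of calls changed with the setting. Beside 162 called genes (112 higher and 50 lower in C-28.2, 60 past 2.5-fold in both cultures, 8 list members), the culture as a block gave 84 lower, and library totals 31 lower. An adjusted p below 0.01 left 1 gene, higher and past 2.5-fold in both cultures, 0 lower and 0 list members. Without the fold minimum there were 985 genes, 486 higher and 499 lower, with 56 list members. The test against 2.5-fold (glmTreat) called 0 genes in either direction, 0 list members and 0 in the check of both cultures. The gene length offset gave 103 genes, 58 higher, with 2 list members, and with the replicate block 64 higher and 3 list members. For the difference between the cold shifts, where 1 gene was called, library totals gave 5, DESeq2 286, no filter 11, the block 161, the length offset 54, the offset with the block 130, and an adjusted p below 0.01 or glmTreat 0. Leaving out each library in turn gave between 0 and 470 called genes, 0 to 278 higher, 0 to 192 lower, 38 to 65 past 2.5-fold in both cultures and 0 to 1019 for the difference between the shifts. The lowest count of calls came without C-28.1 C and the highest without C-28.2 A. The range of 38 to 65 covers only the fits that kept cultures A and C in both cold samplings. Without C-28.1 A, C-28.1 C, C-28.2 A or C-28.2 C the check in both cultures was not made. Genes not called changed sign in 3 cases: Gs43630 was -0.056 with the length offset and between -0.10 (without C-28.2 C) and 0.55 (without C-28.2 A) when a library was left out, and Gs28130 between -0.54 (without C-28.2 C) and 0.070 (without C-28.2 A). The cause of these differences was not tested. With the block, Gs25550 and Gs50190 lost the call among the named genes and the 29 others kept it. Residual degrees of freedom were 5, and genes with few reads, such as Gs04720 and Gs62880 (1 count in the lowest library), have wide counting errors.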
